A study of Homo sapiens with 4 samples.

Results

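Posterior HOX genes of groups 6 to 10 were examined in ribosome-bound RNA of human ATOH1-lineage cells. The members were 8 genes chosen by name, HOXA6, HOXB7, HOXA9, HOXB9, HOXC9, HOXD9, HOXA10 and HOXC10, among 1665 genes that could be tied to a symbol and 69548 transcripts in all. All 8 could be tied, HOXA10 as 2 transcripts and each of the others as 1. The cells were of the human embryonic stem cell line RUES2, carrying ATOH1-EGFP-L10a, in which a human ATOH1 enhancer drives a ribosomal protein fused to EGFP. The paper expanded 2 clones per construct and does not say which clone gave each library. All cultures were differentiated for 28 days with the dual SMAD inhibitors SB431542 and LDN-193189, the WNT agonist CHIR99021, FGF2, BDNF and BMP7. Every library comes from RUES2 cells with this construct. The IP group held 3 libraries of RNA bound to tagged ribosomes and captured with GFP antibodies (translating ribosome affinity purification, TRAP), from independent differentiations, and the input group held 1 library.

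The sample labelled input and the tags carried by the deposited files point to different libraries. Here the input is the library set by the file tag, whose tag also differs from the one that the 3 IP libraries share. The labels do not say what the tags stand for, and whatever they mark cannot be told apart from a difference between bound and input RNA. When each library in turn was taken as input, 1703 of 1998 genes of the study's table could be matched with this choice and 20 to 58 with the others. In bulk RNA, fewer cells of a type and less RNA per cell cannot be told apart either. Total estimated counts were 34603230 to 37719839 in the IPs and 41173019 in the input.

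HOX genes encode homeodomain transcription factors. In humans 39 of them lie in 4 clusters, HOXA to HOXD, and a gene's place in its cluster matches the body level at which it is active, with low group numbers in the hindbrain and higher ones in the spinal cord and trunk. Genes with the same number in different clusters are paralogues. ATOH1 is the transcription factor of the rhombic lip, which gives rise to cerebellar granule cells, and of a dorsal progenitor domain of the spinal cord.

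Group 9 was the only group with a member in each of the 4 clusters among these genes, and the homeoboxes of HOXB9, HOXC9 and HOXD9 are shown because these paralogues differ in level while their DNA-binding parts are alike. Each sequence is the coding strand of the homeobox, 180 bases read 5′ to 3′ from GRCh37, with the codons of the recognition helix, which contacts DNA, in capitals. HOXB9 is at chr17:46700283-46700462 on the minus strand, HOXC9 at chr12:54396249-54396428 on the plus strand and HOXD9 at chr2:176988697-176988876 on the plus strand.
HOXB9: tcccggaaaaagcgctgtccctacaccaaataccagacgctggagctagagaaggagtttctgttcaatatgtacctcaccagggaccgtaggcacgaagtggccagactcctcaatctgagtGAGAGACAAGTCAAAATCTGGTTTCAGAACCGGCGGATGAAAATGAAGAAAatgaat
HOXC9: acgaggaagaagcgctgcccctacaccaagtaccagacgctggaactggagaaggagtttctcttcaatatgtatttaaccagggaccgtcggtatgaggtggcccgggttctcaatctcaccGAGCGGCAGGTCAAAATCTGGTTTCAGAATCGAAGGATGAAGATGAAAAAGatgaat
HOXD9: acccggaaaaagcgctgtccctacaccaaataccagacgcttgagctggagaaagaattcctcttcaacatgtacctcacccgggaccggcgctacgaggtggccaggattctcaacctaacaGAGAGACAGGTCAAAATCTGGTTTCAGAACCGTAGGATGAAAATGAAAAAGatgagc
Between pairs of these 3 paralogues 82.2% to 84.4% of the bases were identical. HOXA6 and HOXB7 shared 85.6% of their homeobox bases, HOXA10 and HOXC10 81.7%, and the least alike pair, HOXA6 and HOXC10, 58.9%. The longest run shared exactly by any pair of members was 40 bases, in HOXB9 and HOXD9, which is under the read length of 75 bases.

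The 8 genes stood at 4.95 to 42.4 TPM (a level scaled for transcript length and library size) on average in the IPs and at 0.0207 to 0.858 TPM in the input. In each of the 8, all 3 IP libraries were above the input in TPM and in CPM (counts scaled for library size by TMM), and the groups did not overlap. In CPM this held for 29.3% of all genes and transcripts tested and 51.6% of the joined genes. Together the 8 genes summed to 154, 160 and 138 TPM in IP replicates 1, 2 and 3 and to 2.72 TPM in the input, where they rested on 134 reads. In edgeR's quasi-likelihood fit of 43813 genes and transcripts, adjusted over all of them by Benjamini-Hochberg, 7 of the 8 rose at an adjusted p under 0.05, none fell, and HOXA6 did not pass. Of all genes and transcripts tested 2.3% were called higher in this test, and of the 1665 joined genes 29.7%. The median log2 fold change was 6.59 over the 8 genes, 0.10 over all tested and 0.82 over the joined genes. All joined genes come from a part of the study's table that the study itself had called, so the direction of the members is not independent evidence.

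**Figure D1:**
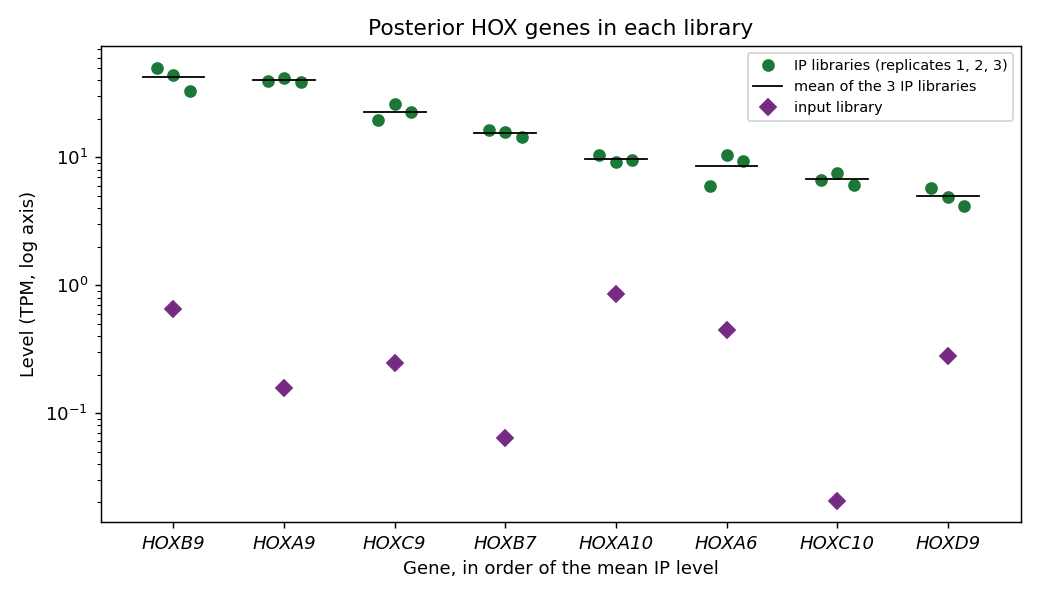
Level of each of the 8 genes in TPM on a log axis, in order of the mean over the 3 IP libraries; circles are IP libraries, lines their mean and diamonds the single input library. In every gene the 3 IP libraries lie above the input, and HOXB9 and HOXA9 are at the top with means of 42.4 and 39.9 TPM.

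In group 9, HOXB9, a paralogue active in the thoracic trunk, stood at 50.2, 44.1 and 32.8 TPM in IP replicates 1, 2 and 3 and at 0.650 TPM in the input. HOXA9, a factor of the trunk that is also known from blood progenitors, stood at 39.2, 41.9 and 38.7 TPM in the IPs, with the input at 0.157 TPM. HOXC9, which in the spinal cord sets the identity of thoracic motor neurons, was measured at 19.5, 25.8 and 22.6 TPM in the IPs, against 0.247 TPM in the input. HOXD9 stood lower in the IPs than its paralogues, at 5.74, 4.91 and 4.19 TPM, and at 0.281 TPM in the input. In TPM HOXA9 was the steadiest of the 8 across the IPs, with a coefficient of variation of 4.35%, and in HOXB9 it was 20.8%. In CPM HOXB7 varied less for its level (15.3 ± 0.303, SD, n = 3) than HOXA9 (63.6 ± 3.19), so this rank depends on the scaling.

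The IP to input ratio of CPM was 322 for HOXA9, with a 95% interval of 163 to 745 from the exact Poisson interval of its 8 input reads. It was 116 (interval 61.2 to 254, 9 input reads) for HOXC9 and 81.8 (61.1 to 112, 45 reads) for HOXB9. HOXD9 had a ratio of 22.1 (12.9 to 41.5, 13 reads), and its interval lay below those of the other group 9 genes. These intervals treat each input read as an independent count and leave out the spread between libraries. The reads carry no molecular identifiers and may be copies of 1 molecule, so the intervals may be too narrow even for counting error. The differences between paralogues were not tested. Standard errors given with edgeR were derived from the fold change and the F statistic of its test. The log2 fold change from edgeR was 8.31 (standard error 0.26, adjusted p = 0.0161) in HOXA9 and 6.84 (0.45, adjusted p = 0.0216) in HOXC9. In HOXB9 it was 6.35 (0.36, adjusted p = 0.0182). In HOXD9 it was 4.45 (0.66, adjusted p = 0.0499), which lies at the threshold. HOXD9 lost its call with median-ratio scaling, with no filter on low counts and with each transcript tested on its own, where its adjusted p was 0.0513, 0.0559 and 0.0557, and over all alternatives its adjusted p lay between 5.29e-14 and 1.00.

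In group 10, whose genes pattern the lumbar level and the limb, HOXA10 stood at 10.45, 9.21 and 9.57 TPM in the IPs, with the input at 0.858 TPM. HOXC10 stood at 6.63, 7.59 and 6.08 TPM in the IPs, with the input at 0.0207 TPM. HOXA10 had the highest input level of the 8 genes and HOXC10 the lowest. HOXA10 had a ratio of 15.3 (interval 11.5 to 20.7), the smallest of the 8, on 48.7 estimated input reads. HOXC10 had 1 input read and a ratio of 412, for which the counting interval of 73.9 to 16269 gives little precision. The standard error of its log2 fold change was 1.48 in DESeq2 and 0.71 in edgeR, so the edgeR value may be too small. By edgeR, the log2 fold change of HOXA10 was 3.92 (standard error 0.36, adjusted p = 0.0294) and that of HOXC10 was 8.50 (0.71, adjusted p = 0.0281).

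The HOXA10 level was a sum of 2 transcripts with unlike ratios. The transcript of 2571 bases held 360, 287 and 481 of the estimated reads in IP replicates 1, 2 and 3 and 8.95 in the input. The transcript of 2199 bases held 316, 338 and 233 in the IPs, against 39.8 in the input. The longer one took 53.2%, 45.9% and 67.4% of the gene's reads in the IPs and 18.4% in the input, with a 95% Wilson interval of 9.98% to 31.4% on 9 of 49 rounded reads. All 3 IP shares lay above that interval. The ratio of IP to input was 46.5 (interval 24.4 to 102) for the longer transcript and 8.23 (6.04 to 11.5) for the shorter. Fitted on their own with edgeR, the longer passed (5.51 on the log2 scale, standard error 0.69, adjusted p = 0.0449) and the shorter did not (3.03, 0.60, adjusted p = 0.0869), and the difference between them was not tested. Salmon divides reads between transcripts by an estimate, whose error is not in these intervals.

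**Figure D2:**
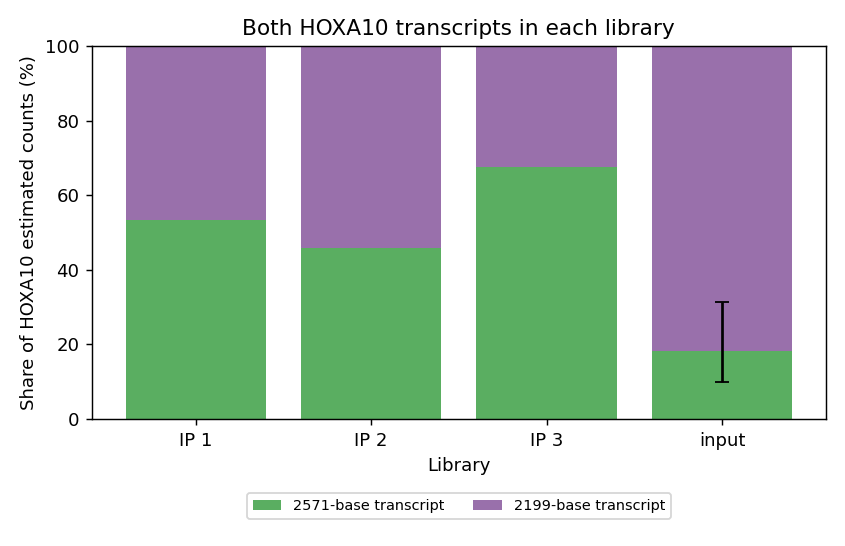
Share of the estimated HOXA10 reads held by each of its 2 transcripts, in percent, in the 3 IP libraries and the input; the bar on the input is the 95% Wilson interval of the longer transcript. The longer transcript holds 45.9% to 67.4% in the IPs and 18.4% in the input.

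HOXB7, a trunk factor of group 7, stood at 16.4, 15.8 and 14.5 TPM in the IPs, against 0.0634 TPM in the input. It had 2 input reads, for which the Poisson interval is 0.242 to 7.22 reads, and its ratio was 309 (interval 85.7 to 2555). The standard error of its log2 fold change was 1.04 in DESeq2 and 0.52 in edgeR. By edgeR its log2 fold change was 8.18 (standard error 0.52, adjusted p = 0.0209). HOXA6, the member of the lowest group number, stood at 5.96, 10.5 and 9.29 TPM in the IPs, against 0.448 TPM in the input. It varied most between the IPs, with a coefficient of variation of 27.4%, and its ratio was 24.3 (interval 11.8 to 60.4, 7 input reads). The log2 fold change of HOXA6 by edgeR was 4.57 (standard error 0.97) at an adjusted p = 0.0919, so it did not pass although all 3 IPs lay above the input.

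In order of IP level, HOXB9 (42.4 ± 8.82 TPM, SD, n = 3) and HOXA9 (39.9 ± 1.74) overlapped between their libraries. HOXC9 (22.7 ± 3.15), HOXB7 (15.6 ± 0.971) and HOXA10 (9.74 ± 0.639) each lay clear of the gene above it. HOXA6 (8.58 ± 2.35) overlapped HOXA10 as well as HOXC10 (6.77 ± 0.762), which in turn lay above HOXD9 (4.95 ± 0.776). Group 9 made up most of the sum of the 8 genes in the IPs, at 115, 117 and 98.3 TPM of 154, 160 and 138. In the input HOXA10 held 31.5% of the sum of the 8 genes, against 5.76% to 6.95% in the IPs, whereas HOXA9 held 5.75% in the input and 25.4% to 28.1% in the IPs.

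Of the other HOX genes, 7 could be joined. HOXA5, HOXA7, HOXB5 and HOXC8 had 0 input reads and 121 to 846 reads per IP library. Genes whose log2 fold change in the study lay above 9 were matched only where the input was at 0. For these 4 genes the 0 was thus a condition of being joined, and neither it nor their calls are independent evidence. The floor for the input library was counted as 3 reads, a one-sided limit. It lies below the upper bound of 3.69 reads of the two-sided interval used for the other genes, so these folds are less cautious. On that floor HOXA7 was at least 295-fold higher in the IPs, HOXB5 at least 158-fold, HOXC8 at least 62.2-fold and HOXA5 at least 54.6-fold. All of these 4 passed the edgeR test. The hindbrain genes of groups 2 and 3 stood in the input at 29.1 TPM (HOXA2), 16.9 TPM (HOXB2) and, much lower, 1.87 TPM (HOXB3). Their ratios of 2.20 (interval 2.09 to 2.33), 7.68 (7.11 to 8.31) and 9.05 (7.64 to 10.8) were below those of all 8 members, though that comparison was not tested. HOXB2 and HOXB3 rose by 2.94 and 3.17 on the log2 scale (edgeR adjusted p = 0.0215 and 0.0292), and HOXA2, at 1.14, did not pass (adjusted p = 0.0868). Over the list of 39 HOX genes, 15 could be joined, of which 13 rose, none fell, and HOXA6 and HOXA2 did not pass. Among all joined genes 29.7% were called higher, against 2.3% of all genes and transcripts tested. Joined genes are ones that the study had called, and the members were chosen with earlier results known. The other HOX genes of the list were not analysed, so these counts do not describe the whole family. Of 17 noncoding RNA genes of the clusters 2 could be joined. HOTAIRM1 rose by 1.85 (adjusted p = 0.0307, edgeR), and HOXB-AS1 had a log2 fold change of 2.94 and did not pass (adjusted p = 0.0513, edgeR).

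**Figure D3:**
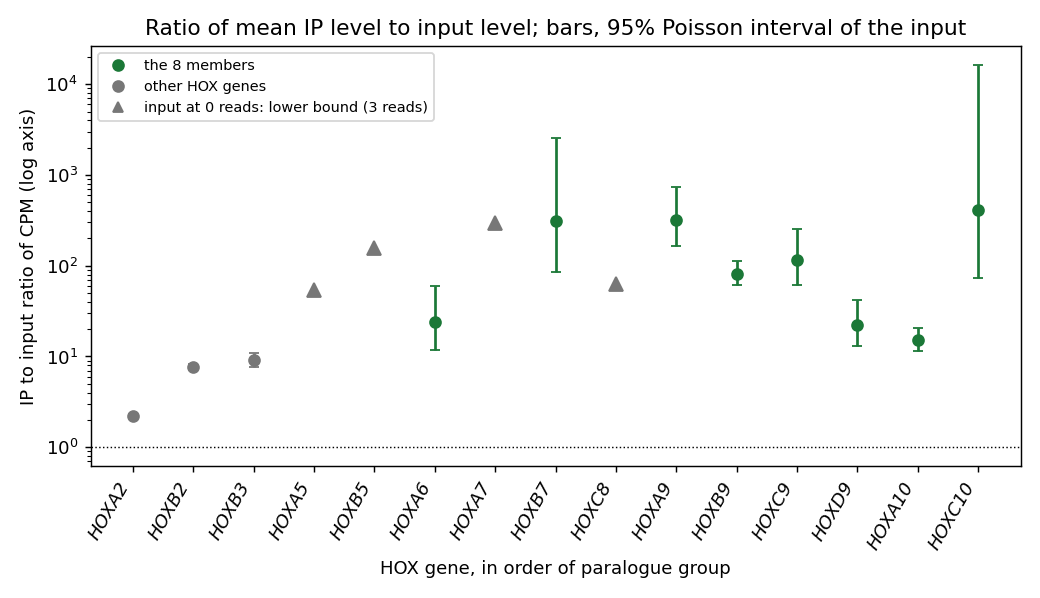
Ratio of the mean IP level to the input level in CPM, on a log axis, for each joined HOX gene in order of paralogue group; bars are 95% Poisson intervals of the input reads and triangles are lower bounds for genes with 0 input reads. The members lie between 15.3 and 412, and HOXA2, HOXB2 and HOXB3 between 2.20 and 9.05.

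The members lie at HOXA6 chr7:27185015-27190222, HOXA9 chr7:27202057-27214799 and HOXA10 chr7:27210224-27219880 (all minus strand), HOXB7 chr17:46684594-46710934 and HOXB9 chr17:46698518-46703720 (minus), HOXC10 chr12:54378849-54384063 and HOXC9 chr12:54388679-54397121 (plus), and HOXD9 chr2:176987447-176989665 (plus), in GRCh37. An exon of HOXA-AS3 overlaps HOXA6 on the opposite strand, HOXA10-AS overlaps both HOXA9 and HOXA10, HOXC-AS2 overlaps HOXC9, and HOXC-AS3 overlaps HOXC10. The libraries did not keep strand, so reads of these genes and of their antisense partners cannot be told apart. On its own strand HOXC9 also shares exon positions with HOXC6 and HOXA9 with MIR196B. The annotated locus ENSG00000257184 overlaps exons of both HOXA9 and HOXA10 on their strand, ENSG00000272801 those of HOXA6, and ENSG00000273049 those of HOXC10, so that only HOXB7, HOXB9 and HOXD9 are free of exon overlap with another annotated gene on either strand. The annotated span of HOXB7 contains HOXB9.

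HOX proteins bind DNA together with PBX and MEIS cofactors, and their genes are set by retinoic acid, CDX factors and chromatin regulators. Of 10 cofactor genes 3 could be joined. MEIS2 rose by 1.27 on the log2 scale (edgeR adjusted p = 0.0328), PBXIP1, which encodes a PBX-binding protein, fell by 1.32 (adjusted p = 0.0292), and MEIS3, at 0.83, did not pass (adjusted p = 0.0712). Of 23 regulator genes 5 could be joined, of which 2 rose, 1 fell and 2 did not pass. Among all joined genes, which the study had called, 29.7% were called higher and 26.5% lower. Of all genes and transcripts tested these shares were 2.3% and 1.48%. CYP26A1, which degrades retinoic acid, rose by 3.57, from 18.6 TPM in the input to 175 ± 19.8 TPM (SD, n = 3) in the IPs. ALDH1A2, which makes it, rose by 2.61, and the receptor gene RARG fell by 1.08 (edgeR adjusted p = 0.0178, 0.0424 and 0.0428 in this order). LIN28A, an RNA-binding protein of early development, was 3.01 higher in the IPs on the log2 scale, the value of the histone demethylase gene KDM6A was -1.43, and neither passed (edgeR adjusted p = 0.0620 and 0.0816).

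ATOH1 itself stood at 37.8, 50.6 and 44.1 TPM in the IPs, against 0.304 TPM in the input, and rose by 7.49 (edgeR adjusted p = 0.0197). Of 12 ATOH1 lineage markers 4 could be joined (ATOH1, BARHL1, OLIG3 and MEIS2), and all 4 rose. Calls higher made up 29.7% of the joined genes and 2.3% of all genes and transcripts tested. Of 7 joined markers of other cells that could carry HOX expression, 6 were lower in all 3 IPs than in the input, of which 4 passed. Among the joined genes, 48.3% were lower in all 3 IPs and 26.5% were called lower, against 33.4% and 1.48% of all genes and transcripts tested. The joined genes are all ones that the study had called. The mesenchyme markers COL1A1 and TBX2, 2 of 7 listed, summed to 183 to 228 TPM in the IPs, against 746 TPM in the input, and both fell. The endothelial marker ADGRL4, 1 of 7, was at 21.3 to 24.2 TPM in the IPs, against 294 TPM in the input, and the neural crest marker SNAI2, 1 of 5, at 121 to 125 and 299 TPM. Both of these fell. The mesoderm markers MEOX2 and NKX3-2, 2 of 10, summed to 1.45 to 3.78 TPM in the IPs, against 24.1 TPM in the input, and neither passed (edgeR adjusted p = 0.103 and 0.104). ISL1, the 1 of 7 spinal motor neuron markers that could be joined, was at 5.32 to 11.5 TPM in the IPs, against 0.875 TPM in the input, and did not pass (edgeR adjusted p = 0.0886). No joined marker was at 0 in the input, the other markers were not analysed here, and the part of other cell types in the levels of the HOX genes was not tested.

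Outside the clusters, the 5 joined genes whose profile over the 4 libraries was nearest to the mean profile of the 8 members were DLL3, CRABP1, CHRNB4, INSM1 and WFIKKN1. Likeness was the Euclidean distance between log2(CPM + 0.5) values centred over the libraries, at a mean of at least 1 CPM, and it was 0.139 for DLL3, 0.279 for CRABP1, 0.319 for CHRNB4, 0.323 for INSM1 and 0.401 for WFIKKN1. The members themselves lay between 0.177 (HOXC10) and 1.74 (HOXA9) from their mean. In every member but HOXB9 and HOXA10 the input CPM was below the added 0.5, which flattens those profiles. The likeness depends on this value, and no other was tried. The log2 fold changes of the 5 genes were 4.21 (CRABP1) to 5.41 (CHRNB4), against a median of 6.59 over the members. DLL3, a Notch ligand, was at 149 to 153 TPM in the IPs and at 7.34 TPM in the input library. CRABP1, which binds retinoic acid inside the cell, was at 10438 to 12046 TPM in the IPs, against 748 TPM in the input.

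The spread in these tests came from the 3 IPs alone, since 1 input has none. None of the 8 genes passed without any 1 of the IPs (8 at an unadjusted p under 0.05) or under limma-voom (7 unadjusted). At that unadjusted level 3573 to 4267 of 42282 to 42446 genes and transcripts were higher without 1 IP. Under limma-voom 3793 of 43813 were higher, and no such count was made for the joined genes. None of the 8 passed when the labels set the input (0 unadjusted, against 1035 of all tested). DESeq2 called all 8, and it called 5783 of all 43813 genes and transcripts higher. It was also the study's own test, and the joined genes are ones that the study had called, so this result is not independent evidence. When the labels set the input, the library used as input here is counted as an IP, and the log2 fold changes were between -0.88 (HOXB9) and 0.25 (HOXA6). In every member that library holds the lowest value of the 4.

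**Figure D4:**
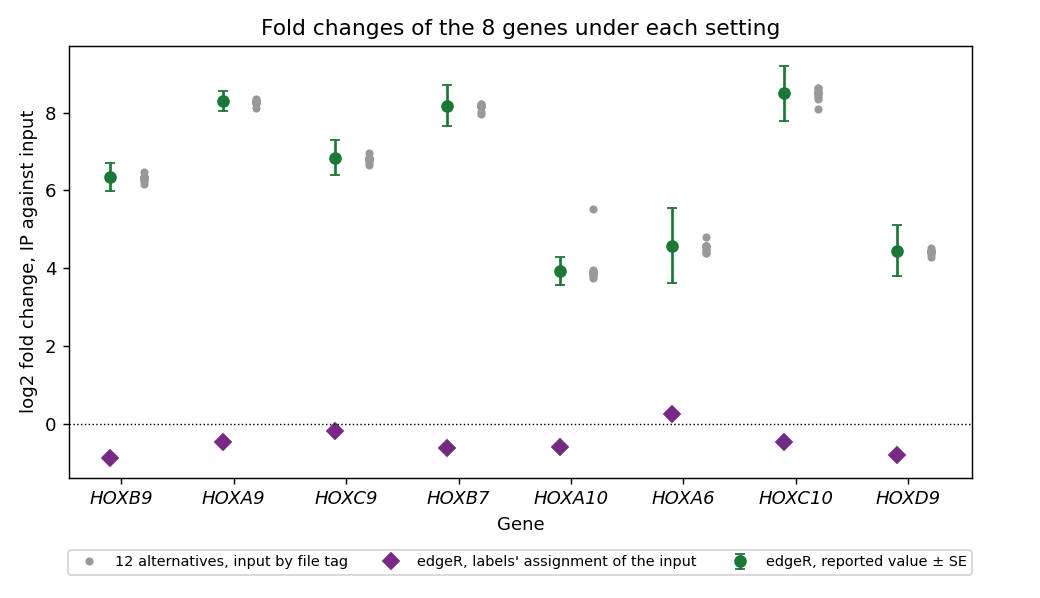
Log2 fold change of the 8 genes, IP against input, with the reported edgeR value ± standard error, 12 alternatives that keep the input set by the file tag, and the labels' assignment. The standard error is derived from the F statistic. Under the file tag the values stay at 3.74 or above in each gene, and the labels' assignment gives values from -0.88 to 0.25.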

How the data were processed

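Full-length cDNA was made with SMART-Seq v4 and sequenced as Nextera XT libraries, 75-base single reads. The authors ran Salmon 0.8.2 on knownGene models of UCSC for hg19. For every transcript, estimated counts and TPM were deposited, and neither keeps strand. Transcripts carry no symbols in the deposited files. They were tied to genes by matching summed mean counts and fold changes to the gene rows of a table of the study, whose columns of the study's own comparison served for this match alone. The exception was 7 joined genes with a log2 fold change above 9 in the study. They were matched by mean count alone, among transcripts with the input at 0. Of 1998 genes available 1665 could be joined, 485 of them as 1 transcript, and 43 with several matches and 2 sharing a transcript were left out. Joined genes with one position followed genomic order in 1540 of 1540 neighbouring pairs. Every other transcript was kept on its own.

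Estimated counts were rounded and tested with edgeR 4.0.16 in R 4.3.3 (TMM, filter at a minimum count of 10, quasi-likelihood test, Benjamini-Hochberg threshold 0.05). The study's own test was DESeq2 1.20.0. As alternatives, DESeq2 1.42.0 and edgeR were also run with a length offset, DESeq2 also without one, and the fit was repeated with size factors by median ratio, limma-voom (limma 3.58.1), no filter, a filter of 50 counts in 2 libraries, each IP left out, the labels' assignment of the input, each transcript alone and the joined genes alone. Functions were tested on simulated data. Poisson intervals are exact and, like the Wilson interval, at 95%. The edgeR standard error is the absolute log2 fold change divided by the square root of the F statistic. The standard error from DESeq2 was larger in HOXB7, HOXA9, HOXC9 and HOXC10 and smaller in HOXA6, HOXB9, HOXD9 and HOXA10.

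The 8 members and the lists were chosen with earlier results of these data known. Named genes are the members, other joined HOX genes, ATOH1, joined list members and the 5 nearest profiles. Groups rest on the file tag. Some items are not reported here.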

Additional observations from a re-analysis of the deposited data

How the results depend on the processing

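With the input set by the file tag, the log2 fold changes of the 8 genes stayed above 0 under all 12 alternatives. All 12 reuse the same single input library, and the members were joined by the study's fold changes. The unchanged sign is therefore not independent evidence. Of 7 members called higher, 0 were called with limma-voom, 0 with any 1 IP left out (0 to 0 over the 3 fits) and 0 with the labels' assignment. Over all genes and transcripts, 1006 were called higher and 647 lower. DESeq2 called 5783 and 3991, DESeq2 with a length offset 5800 and 4009, and a filter of 50 counts in 2 libraries 1868 and 1149. Limma-voom called 0 and 0 (3793 and 6410 unadjusted), the labels' assignment 0 and 0 (1035 and 229 unadjusted), and leaving out 1 IP 0 and 0 (3573 to 4267 and 3130 to 3675 unadjusted). With the labels' assignment the sign turned in 7 members, to -0.61 in HOXB7, -0.46 in HOXA9, -0.88 in HOXB9, -0.19 in HOXC9, -0.80 in HOXD9, -0.60 in HOXA10 and -0.46 in HOXC10, and HOXA6 was at 0.25. That fit places the low library among the IPs. HOXA6 passed with DESeq2, with and without a length offset, and over the joined genes alone. The fit of the joined genes alone called 859 of 1665 higher and 805 lower, so passing there does not set HOXA6 apart. The joined genes are also ones that the study had called with DESeq2, so the DESeq2 calls are not independent evidence. The longer HOXA10 transcript alone gave a log2 fold change of 5.51, against 3.92 for the gene. The cause of the other changes in the counts of calls was not tested. The input held 1 to 49 reads per member, which limits the precision of the ratios, and the spread between input libraries is unmeasured. No paired analysis was possible because the groups share fewer than 2 replicate numbers.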
